A study of Mus musculus with 4 samples.

Results

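The transcripts described here are those of 10 immediate early genes in mouse tumor libraries, 7 of the AP-1 group (Fos, Fosb, Fosl2, Jun, Junb, Jund and Atf3) and 3 of the Egr group (Egr1, Egr2 and Egr3). They were chosen by symbol from the 55367 gene rows of each count table, and all 10 passed the filter on low counts together with 11837 genes in all. Egr3 passed it only through the libraries labeled KO, because both libraries labeled WT held 5 counts of it. The 4 libraries (WT 1, WT 2, KO 1 and KO 2) were made from polyadenylated RNA of cells that the labels describe as CD45.2+ and CD8+, sorted after tumor tissue had been dissociated. The tumors grew from B16-F10, a melanoma line of the mouse, and all 4 libraries share the tumor line, the dissociation reagent and the sort. The series describes WT mice and mice with a floxed Satb1 gene (Satb1 F/F) that carry either ThPOK-cre, a driver active from commitment to the CD4 lineage, or E8I-cre, a driver of CD8 T cells. The design text speaks of single cells, but each table holds a single column of counts per gene. The labels do not say which driver stands behind KO, and give no sex, age, batch or number of animals per library.

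Gene counts per library ran from 4017875 to 5382915. Satb1, the gene named as deleted, had 7 and 5 counts in WT 1 and WT 2 and 131 and 55 counts in KO 1 and KO 2, with no call in edgeR (adjusted p = 0.115). It passed the filter on low counts only through the libraries labeled KO. The T cell markers given next were also higher in KO, and Satb1 per T cell was not measured. These counts therefore do not test the labels, and directions are those of the libraries as labeled. The markers went against the sort. The summed normalized CPM (CPM, the count scaled to library totals adjusted by TMM factors) of 10 T cell markers was 80.7 in WT 1, 112 in WT 2, 2066 for KO 1 and 1152 for KO 2. Of these markers 9 were past the threshold, higher in KO (0.549% of all genes tested), and none was at 0 in any library. For 13 macrophage or monocyte markers it was 35841 and 42798, then 20079 and 28925, again with none at 0. Melanoma markers summed to 263 and 269 CPM for WT 1 and WT 2, 1971 for KO 1 and 1173 for KO 2. Fibroblast or endothelium markers summed to 24.8 and 20.2 CPM with the WT label against 1149 for KO 1 and 185 for KO 2, where Col1a1 and Pdgfrb were at 0 in at least 1 library. Dendritic cell markers summed to 652, 534, 656 and 858 CPM and neutrophil markers to 153, 115, 46.9 and 90.1 CPM in the order WT 1, WT 2, KO 1, KO 2. Flt3 and Xcr1 of the dendritic cell list were at 0 in at least 1 library. The neutrophil sum was almost all Csf3r, with 150, 113, 45.8 and 88.0 CPM, the only 1 of 5 genes tested. S100a9, Cxcr2 and Retnlg of that list were at 0 in at least 1 library, so the sum does not show a level of neutrophils. Col1a1, Col1a2, Col3a1, Tyrp1 (melanoma list) and Ccr7 (dendritic cell list) were also called higher in KO. Of these, Col1a1 (9 and 0 counts in WT 1 and WT 2) and Col3a1 (7 and 1 counts) passed the filter on low counts only through the libraries labeled KO. Their calls support nothing by themselves. Ccr7 was the only called gene of 6 tested from its list, of which 4 were fitted above 0 and 2 (Irf8 and Itgax) below 0. In such mixed samples fewer cells of a type and less RNA per cell cannot be told apart.

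Immediate early genes are transcribed within minutes of a stimulus, before any new protein is needed. Kinases of the MAPK cascades act on serum response factor with its ternary complex partners, which bind CArG boxes, and on CREB and ATF proteins, which bind the cAMP response element (CRE). Fos and Jun proteins pair through leucine zippers to form AP-1, and Egr proteins are zinc finger factors that bind GC-rich sites. In T cells the antigen receptor induces both families, and in macrophages microbial ligands and growth factors do so.

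The promoters of 7 members are shown, those of all 6 members that had KO 1 as the lowest and KO 2 as the highest library after TMM scaling (Fos, Jun, Junb, Jund, Atf3 and Egr2, of which Junb and Egr2 lose this order without scaling factors) and that of Fosl2, which did not. Each stretch covers 150 bases before and 50 bases from the annotated RefSeq start (GRCm38.p6) and is written along the gene. They lie at chr12:85473740-85473939 (plus strand) for Fos, chr4:95052173-95052372 (minus strand) for Jun, chr8:84978699-84978898 (minus strand) for Junb, chr8:70697589-70697788 (plus strand) for Jund, chr1:191183284-191183483 (minus strand) for Atf3, chr10:67537719-67537918 (plus strand) for Egr2 and chr5:32136322-32136521 (plus strand) for Fosl2. Of 5 annotated windows of Egr2 the stretch was taken from one that holds both a CArG box and a CRE core. The Jund stretch ends at 70697788, before the GENCODE gene start at 70698949. The start used for Atf3 lies inside its GENCODE gene, which begins on the minus strand at 191218039. No window at these GENCODE starts of Jund and Atf3 was searched. Capitals mark matches, on either strand, to the CRE core TGACGT, the AP-1 site TGANTCA, the EGR site GCGNGGGCG, the GC box GGGCGG or the CArG box.
Fos: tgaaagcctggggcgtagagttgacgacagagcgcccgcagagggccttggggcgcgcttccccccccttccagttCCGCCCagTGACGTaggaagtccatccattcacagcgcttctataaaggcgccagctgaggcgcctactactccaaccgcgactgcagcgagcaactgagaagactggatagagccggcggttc
Jun: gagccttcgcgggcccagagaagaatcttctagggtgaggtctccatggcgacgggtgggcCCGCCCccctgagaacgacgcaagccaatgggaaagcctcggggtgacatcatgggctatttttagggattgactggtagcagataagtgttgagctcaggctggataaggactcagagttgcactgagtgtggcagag
Junb: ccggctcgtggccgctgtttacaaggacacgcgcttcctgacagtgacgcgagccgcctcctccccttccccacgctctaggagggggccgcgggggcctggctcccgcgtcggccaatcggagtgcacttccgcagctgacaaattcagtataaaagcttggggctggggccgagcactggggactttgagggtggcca
Jund: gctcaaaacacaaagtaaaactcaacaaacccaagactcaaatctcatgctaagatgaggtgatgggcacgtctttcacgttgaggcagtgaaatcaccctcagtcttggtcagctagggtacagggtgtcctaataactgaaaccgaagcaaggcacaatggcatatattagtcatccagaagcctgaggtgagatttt
Atf3: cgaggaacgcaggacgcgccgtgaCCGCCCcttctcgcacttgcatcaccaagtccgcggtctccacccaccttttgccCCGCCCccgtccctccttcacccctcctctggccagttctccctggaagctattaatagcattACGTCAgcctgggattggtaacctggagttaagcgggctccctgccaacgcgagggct
Egr2: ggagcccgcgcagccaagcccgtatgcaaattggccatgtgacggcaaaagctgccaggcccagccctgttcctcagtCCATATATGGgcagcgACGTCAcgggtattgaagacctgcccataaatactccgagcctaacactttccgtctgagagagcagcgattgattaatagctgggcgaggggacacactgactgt
Fosl2: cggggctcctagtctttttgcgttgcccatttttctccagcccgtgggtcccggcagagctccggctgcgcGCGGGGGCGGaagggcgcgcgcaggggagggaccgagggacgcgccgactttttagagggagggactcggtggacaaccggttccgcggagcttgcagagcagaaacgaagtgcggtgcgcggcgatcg

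Over RefSeq windows of 300 bases, which were found for 8 members (Egr1 and Egr3 were not matched), the CRE core was in those of Fos, Atf3 and Egr2 and in 7.51% of all 32851 windows, and was not in those of Jun, Junb and Jund. For Jund this says nothing about the bases at its GENCODE start, which the window does not reach. In Fos the CRE core began 66 bases before the start and in Atf3 8 bases before the RefSeq start used, which lies inside the GENCODE gene. Egr2 had 5 annotated windows, and in the window printed here its CRE core began 56 bases before the start, beside a CArG box that began 72 bases before it. A CArG box was in 1.63% of all windows and in none of the other 7 members with a window. The windows reach 250 bases before the start, and sites further upstream were not searched. The EGR site was in the windows of Fosb and Fosl2 and in 5.55% of all windows, where in Fosl2 it shares bases with a GC box. GC boxes were in 6 of the 8 members and in 35.7% of all windows. Neither the AP-1 site (7.81% of all windows) nor the full 8-base CRE (1.79%), which contains the CRE core, was in any member's window. These are matches of letters and not measured sites.

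The comparison of KO with WT asked whether the genotype label went with a change in these genes in cells of the tumor. None of the 10 members was past the threshold of an adjusted p of 0.05 in the edgeR quasi-likelihood test, where 0.574% of all genes tested were (0.549% higher and 0.0253% lower in KO). At an unadjusted p under 0.05 there were 0 members, where 13.7% of all genes tested passed. DESeq2 called 0 members at an adjusted p under 0.05 (3.51% of all genes) and 0 at an unadjusted p (14.4%). The edgeR likelihood ratio test called 0 at an adjusted p (4.7% of all genes) and 1 at an unadjusted p (16.4%), which was Egr3 (unadjusted p = 0.0446, adjusted p = 0.291). The fitted log2 fold changes were above 0 for all 10 members, with a median of 0.32 beside 0.05 for all genes tested. With RLE factors and in DESeq2 the value of Fos was -0.0028, and 6 of the 10 values went below 0 when KO 2 was left out, and their median then became -0.37. The libraries labeled KO lay on both sides of those labeled WT for most members, and that spread is described gene by gene.

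**Figure D1:**
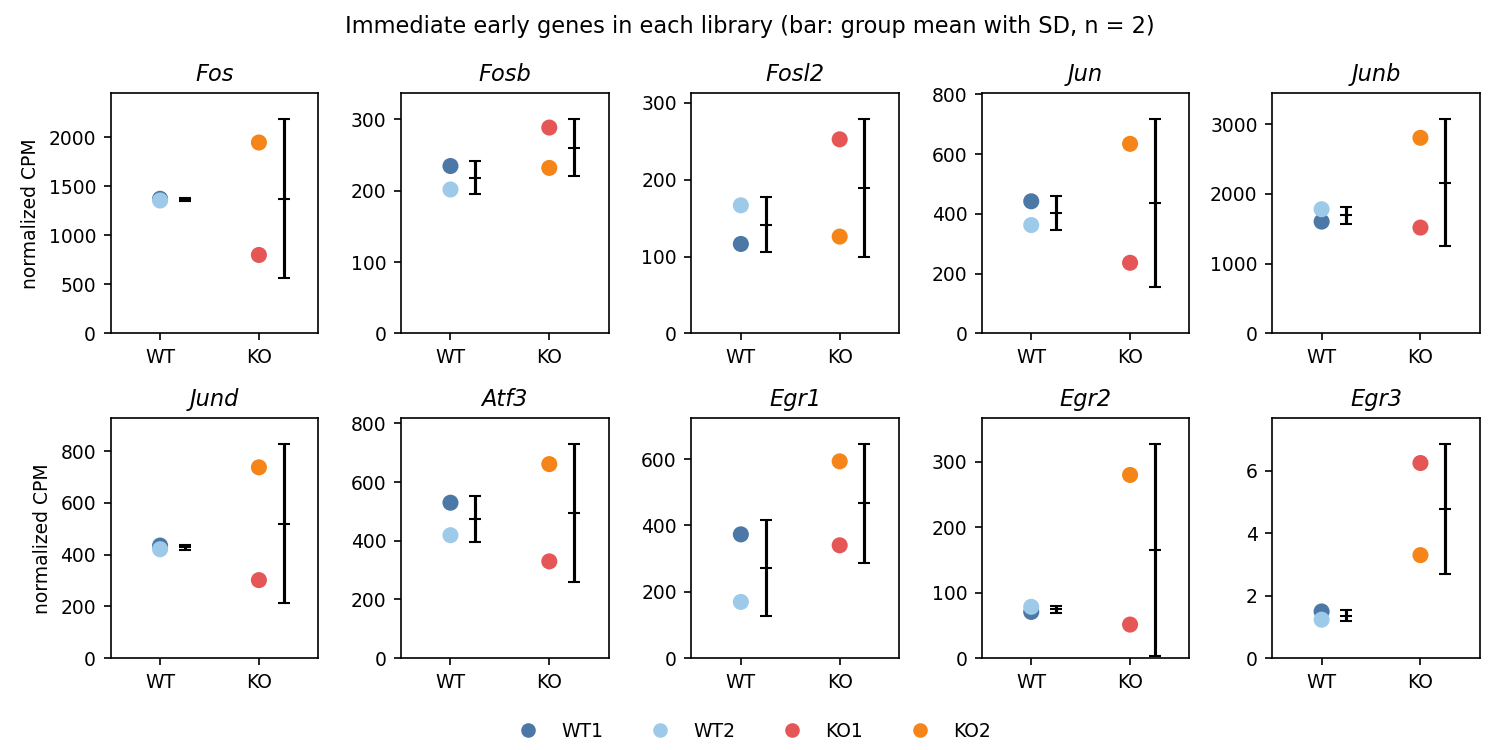
Normalized CPM (vertical axes, from 0) of the 10 members in the 4 libraries, by group, with colored points for libraries and bars for the group mean and SD (n = 2). For Fos, Jun, Junb, Jund, Atf3 and Egr2 the KO 1 point is the lowest and the KO 2 point the highest, with both WT points between them, which for Junb and Egr2 does not hold without scaling factors.

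Fos (chromosome 12, 85473890 to 85477273, GRCm38/mm10) encodes the first-described AP-1 partner of Jun. WT 1 and WT 2 had 1374 and 1357 CPM, KO 1 had 801 and KO 2 had 1949. The libraries labeled WT nearly coincided, and those labeled KO lay on either side of them. The means were 1365 ± 12.5 CPM (SD, n = 2) in WT and 1375 ± 812 (SD, n = 2) in KO, a log2 fold change of 0.01 (SE 0.57, edgeR adjusted p = 0.997). Its 95% interval ran from -1.27 to 1.29, which includes a 2-fold difference in either direction. KO 2 held 2.43 times the CPM of KO 1, with an exact binomial 95% interval from 2.35 to 2.52 that covers counting error only.

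Fosb (chromosome 7, 19302696 to 19310051, minus strand), a close relative of Fos that is also known for a long-lived truncated form, behaved otherwise. Its values were 234 and 202 CPM in WT 1 and WT 2, and 288 and 232 CPM in KO 1 and KO 2. The groups overlapped, and KO 1 was the highest library. The log2 fold change was 0.25 (SE 0.43, edgeR adjusted p = 0.830) and a 95% interval from -0.72 to 1.23. It became 0.08 without KO 1, 0.10 without WT 2 and 0.37 without KO 2. Fosb was the only member whose libraries labeled KO were less than 1.5-fold apart, where 42.2% of all genes tested were.

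Fosl2 (chromosome 5, 32135801 to 32157842) encodes Fra-2, a Fos-related protein that lacks the strong activation domain of Fos. WT 1 and WT 2 had 116 and 167 CPM, KO 1 had 252 and KO 2 had 126. KO 1 was again the highest, and KO 2 fell between the libraries labeled WT. The log2 fold change was 0.42 (SE 0.49, edgeR adjusted p = 0.742) and a 95% interval from -0.68 to 1.52, and became -0.18 without KO 1. It was the only member at least 2-fold higher in KO 1 than in KO 2, where 19.2% of all genes tested were.

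Jun (chromosome 4, 95049034 to 95052222, minus strand) encodes c-Jun, the AP-1 subunit activated by the JNK kinases. It had 442 and 363 CPM in WT 1 and WT 2, then 236 in KO 1 and 635 in KO 2. KO 1 was the lowest and KO 2 the highest library. The means were 403 ± 56.3 CPM (SD, n = 2) and 436 ± 282 (SD, n = 2), and the log2 fold change was 0.11 (SE 0.55, edgeR adjusted p = 0.949). Without KO 2 the log2 fold change became -0.80, and without KO 1 it became 0.65. Jun shares 7.28% of its exonic bases with Junos on the other strand, and no source used here states that counting used strand, so the counts of both are uncertain. Junos had 153 and 167 counts in WT 1 and WT 2, 126 in KO 1 and 788 in KO 2, the same order as Jun in the libraries labeled KO.

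Junb (chromosome 8, 84974484 to 84978718, minus strand), which encodes a Jun protein that can restrain c-Jun and that pairs with BATF in lymphocytes, was the most abundant member. WT 1 and WT 2 had 1603 and 1781 CPM, KO 1 had 1518 and KO 2 had 2805. KO 2 stood above the other 3 libraries. Per library total without scaling factors, WT 1 was the lowest, with 1334 CPM against 1790 in KO 1. The log2 fold change was 0.35 (SE 0.54, edgeR adjusted p = 0.811) and a 95% interval from -0.87 to 1.58. It was -0.19 without KO 2 and 0.72 without KO 1. Junb shares 7.52% of its exonic bases with Prdx2 on the other strand.

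Jund (chromosome 8, 70698949 to 70700616) encodes the Jun protein that is present in many resting cells. Its levels were 435 and 421 CPM in WT 1 and WT 2, then 302 in KO 1 and 737 in KO 2. The libraries labeled WT were close together, and both libraries labeled KO lay outside their range in opposite directions. The means were 428 ± 10.1 CPM (SD, n = 2) and 519 ± 308 (SD, n = 2), a log2 fold change of 0.28 (SE 0.54, edgeR adjusted p = 0.850). It became -0.54 without KO 2 and 0.78 without KO 1. Jund is a gene of 1 exon, and 52.6% of its exonic bases are shared with Gm11175 on the other strand, whose counts were between 0.653 and 0.787 of those of Jund in every library. The level of Jund is therefore uncertain.

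Atf3 (chromosome 1, 191170296 to 191218039, minus strand), a stress-induced factor that can repress inflammatory genes, had 530 and 419 CPM in WT 1 and WT 2, 330 in KO 1 and 662 in KO 2. The order was again KO 1 lowest and KO 2 highest. The log2 fold change was 0.06 (SE 0.51, edgeR adjusted p = 0.974) and a 95% interval from -1.08 to 1.21. It became -0.56 without KO 2 and 0.47 without KO 1.

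**Figure D2:**
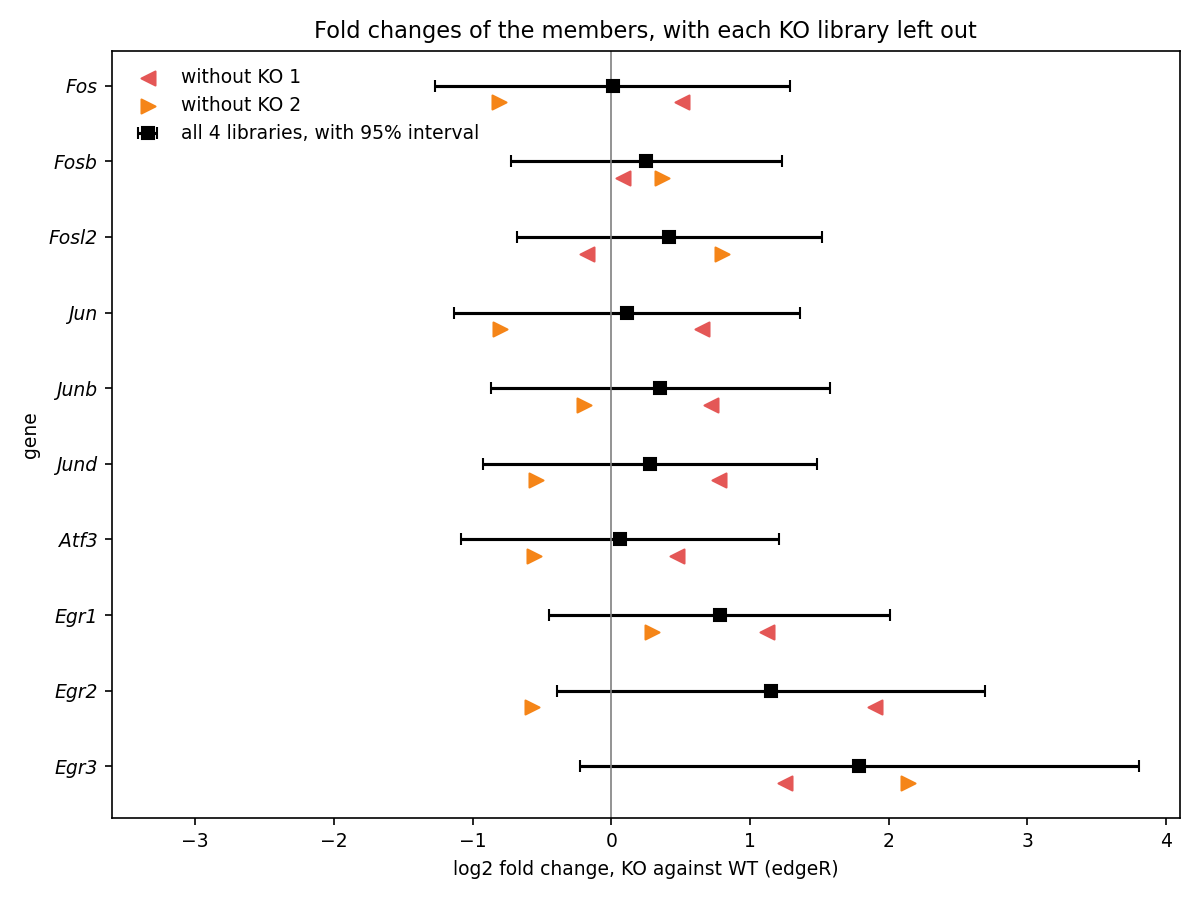
Log2 fold change of KO against WT for each member (horizontal axis), with squares and 95% intervals for all 4 libraries and triangles for fits without KO 1 or without KO 2. Every interval with all 4 libraries includes 0, and for Fos, Jun, Junb, Jund, Atf3 and Egr2 the fits without KO 1 and without KO 2 lie on opposite sides of 0, as they do in the reverse order for Fosl2.

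Among the Egr genes, Egr1 (chromosome 18, 34859823 to 34864984), the growth factor-responsive member, had 373 CPM for WT 1 and 170 for WT 2, while KO 1 had 340 and KO 2 had 593. It was the only member whose libraries labeled WT were at least 2-fold apart, where 21% of all genes tested were. KO 1 fell inside the range of the libraries labeled WT. The means were 271 ± 144 CPM (SD, n = 2) and 467 ± 179 (SD, n = 2), a log2 fold change of 0.78 (SE 0.55, edgeR adjusted p = 0.548) and a 95% interval from -0.45 to 2.01. The value ran from 0.28 without WT 2 to 1.42 without WT 1.

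Egr2 (chromosome 10, 67535475 to 67542188), which restrains T cell activation and also marks some macrophage states, differed most between the libraries labeled KO. WT 1 and WT 2 had 236 and 318 counts, KO 1 had 271 and KO 2 had 1611. As normalized CPM these were 70.6, 78.4, 51.3 and 280. KO 2 stood apart. KO 1 was the lowest after TMM scaling, whereas without scaling factors WT 1 was, with 58.7 CPM against 60.5 in KO 1. KO 2 held 5.45 times the CPM of KO 1 (exact binomial 95% interval from 4.79 to 6.22, counting error only), while WT 2 held 1.11 times that of WT 1. The log2 fold change with all libraries was 1.15 (SE 0.68, edgeR adjusted p = 0.482) and a 95% interval from -0.39 to 2.69. Without KO 1 it became 1.90 and passed the threshold (edgeR adjusted p = 0.0213), in a fit that assumes that the lone KO library varies like the WT group. Without KO 2 it became -0.57 (edgeR adjusted p = 0.362), and over all alternatives the adjusted p ran from 0.0213 to 0.9999.

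Egr3 (chromosome 14, 70077203 to 70082614), a target of antigen receptor signaling that acts with Egr2, was close to the limit of detection. It had 5 and 5 counts in WT 1 and WT 2, 33 in KO 1 and 19 in KO 2, which is 1.5, 1.23, 6.25 and 3.30 CPM. It was the only member whose groups did not overlap, where 47.9% of all genes tested did not overlap in either direction and 25.3% were higher and 22.6% lower in KO. Without scaling factors the groups of 4 members did not overlap (Fosb, Junb, Egr1 and Egr3), where those of 48.4% of all genes did not, and with upper-quartile factors those of Fosb and Egr3 did not. The log2 fold change was 1.79 (SE 0.89, edgeR adjusted p = 0.415) and a 95% interval from -0.22 to 3.80. Since Egr3 passed the filter only through the libraries labeled KO, this order supports nothing by itself. Its order differed from that of Egr2, since KO 1 was the highest library.

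The 10 members together held 0.431% of gene counts in WT 1 (exact Clopper-Pearson 95% interval 0.425 to 0.438), 0.472% in WT 2 (0.466 to 0.479), 0.486% in KO 1 (0.480 to 0.493) and 0.858% in KO 2 (0.850 to 0.866). KO 2 had the highest share, and the other 3 libraries lay between 0.431% and 0.486%. The group means were 0.452% ± 0.0290 (SD, n = 2) and 0.672% ± 0.263 (SD, n = 2), and the share was not tested. With 2 and 2 libraries exact permutation reaches no p lower than 0.333. Relative to the scaled library totals KO 1 held the least, with 4125 summed CPM against 5181 for WT 1, 4957 for WT 2 and 8021 for KO 2.

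Set side by side, 6 of the 10 members (Fos, Jun, Junb, Jund, Atf3 and Egr2) had KO 1 as the lowest and KO 2 as the highest of the 4 libraries, an order found in 9.9% of all genes tested. The count depended on scaling: it was 6 with RLE factors, 5 with upper-quartile factors (without Junb) and 4 without scaling factors (Fos, Jun, Jund and Atf3), where 9.61% of all genes had the order. The reverse order was found in 0 members and in 9.84% of all genes. KO 2 was the highest library for 7 members, where 24% of all genes were highest in KO 2. KO 1 was the highest for the other 3 (Fosb, Fosl2 and Egr3), against 34.1% of all genes. KO 2 was at least 2-fold above KO 1 for 5 members, against 15.6% of all genes, and for 4 (not Atf3) under the other 3 scalings. The libraries labeled WT were less than 1.5-fold apart for 9 of the 10 members, where 59.5% of all genes were. For 9 members the fold between the libraries labeled KO was wider than that between the libraries labeled WT, where 62.3% of all genes tested showed this. The exception was Egr1.

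Ratios of counts between members within a library do not depend on scaling. Fos over Jun was 3.11 and 3.74 for WT 1 and WT 2 and 3.39 and 3.07 for KO 1 and KO 2, so that it moved by at most 1.22-fold while each gene alone moved by over 2-fold. Jund over Jun moved by at most 1.30-fold and Atf3 over Fos by at most 1.33-fold. Junb followed them less closely, since Junb over Jun moved by up to 1.77-fold and Fos over Junb by up to 1.62-fold. By contrast Fosl2 over Fos was 0.0847, 0.123, 0.315 and 0.0646 in the same order of libraries, a spread of 4.88-fold with KO 1 at the top. Fosb over Fos was 0.171, 0.149, 0.360 and 0.119, also highest in KO 1. Egr1 over Fos moved by up to 3.40-fold. Egr2 over Egr1 was 0.189 in WT 1 and 0.151 in KO 1, but 0.462 in WT 2 and 0.471 in KO 2.

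**Figure D3:**
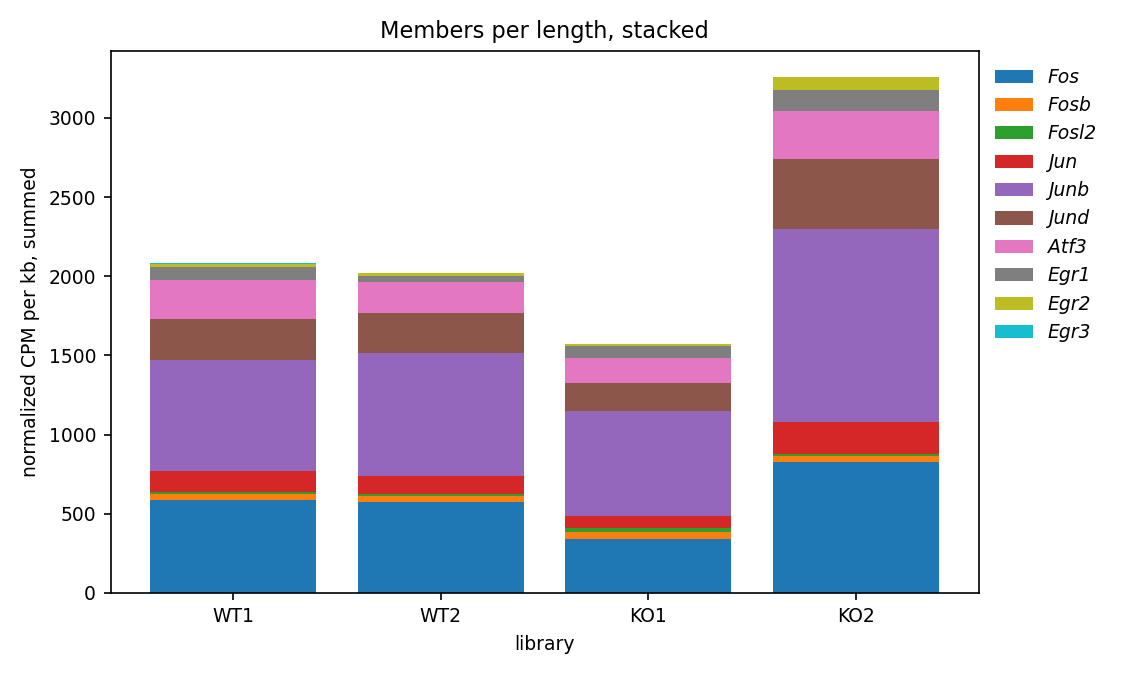
Stacked normalized CPM per kb of exon (vertical axis) of the 10 members in each library (horizontal axis), 1 color per gene. KO 2 has the tallest bar and KO 1 the shortest, and Junb and Fos make up the largest parts in all 4 libraries.

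Levels of different genes were compared per length, as normalized CPM per kb of exon. Junb was highest in every library, with 697 and 774 CPM per kb in WT 1 and WT 2 and 660 and 1219 in KO 1 and KO 2, followed by Fos, Jund and Atf3 in that order in all 4 libraries. Among the 53253 genes with an annotated length, Junb ranked 115 for WT 1, 80 for WT 2, 75 for KO 1 and 35 for KO 2. In WT the mean levels per kb were 735 ± 54.6 for Junb, 580 ± 5.31 for Fos, 257 ± 6.04 for Jund, 220 ± 36.4 for Atf3, 126 ± 17.6 for Jun, 60.5 ± 32.1 for Egr1, 34.9 ± 3.73 for Fosb, 21.9 ± 1.62 for Egr2, 14.6 ± 3.67 for Fosl2 and 0.310 ± 0.0422 for Egr3 (SD, n = 2). In that order the neighbors Jund and Atf3, and Egr1 and Fosb, differed by less than the larger of their SDs. In KO the SDs were wider, with 939 ± 396 for Junb and 584 ± 345 for Fos (SD, n = 2), and the neighbors from Junb through Fos, Jund, Atf3 and Jun to Egr1 did not differ beyond them, nor did Egr2 and Fosb. Junb took 33.5%, 38.3%, 41.9% and 37.4% of the summed per-length level of the members in WT 1, WT 2, KO 1 and KO 2, and Fos 28.1%, 28.5%, 21.6% and 25.4%.

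Other genes of the pathway were read from lists in the same fit. Of 8 other AP-1 family genes 0 were past the threshold in edgeR, and 2 (Batf3 and Atf2) had an unadjusted p under 0.05, beside 13.7% of all genes. Batf3, a partner of Jun proteins needed for cross-presenting dendritic cells, had 50.8 and 64.6 CPM in WT 1 and WT 2 and 28.4 and 13.0 in KO 1 and KO 2, a log2 fold change of -1.48 (SE 0.51, edgeR adjusted p = 0.258). Maff, a small Maf protein, had a log2 fold change of 0.14 (edgeR adjusted p = 0.946). The list had a median log2 fold change of -0.08, and 1 of its 8 genes had KO 1 lowest and KO 2 highest, beside 9.9% of all genes. The Egr corepressor genes Nab1 and Nab2 had log2 fold changes of 0.73 and -0.77 (edgeR adjusted p = 0.556 and 0.449), while Egr4 was at 0 counts in 3 of the 4 libraries and was not tested.

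Upstream of the members, 0 of 18 genes for serum response factor, its partners and the MAPK chain were past the threshold in edgeR, with 1 at an unadjusted p under 0.05, beside 13.7% of all genes tested. The median log2 fold change was -0.03, and it was -0.46 without KO 2, -0.21 with a replicate block and 0.29 without scaling factors. The gene at an unadjusted p under 0.05 was Mapk3, which encodes the kinase ERK1, with 244 and 121 CPM in WT 1 and WT 2 and 61.7 and 72.2 in KO 1 and KO 2 (log2 fold change -1.44, SE 0.48, edgeR adjusted p = 0.244). Creb1, the gene for a CRE-binding activator, had a log2 fold change of 1.14 (SE 0.51, edgeR adjusted p = 0.370).

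Downstream and parallel genes repeated the high level of KO 2 in part. None of 7 genes for MAPK phosphatases, which switch the kinases off, was past the threshold in edgeR. An unadjusted p under 0.05 was given to 1 (Dusp4, at a mean below 20 CPM), beside 13.7% of all genes tested. Their summed level was 2494 and 1823 CPM in WT 1 and WT 2, then 1115 in KO 1 and 4525 in KO 2, the order of Fos. Dusp1, named after its values were seen, made up most of this sum, with 2173, 1519, 756 and 4035 CPM. Without it the other 6 genes summed to 321 and 304 CPM for WT 1 and WT 2, 359 for KO 1 and 490 for KO 2, so that KO 1 was no longer the lowest, and 2 of the 7 genes had KO 1 lowest and KO 2 highest. Among those with a mean of at least 20 CPM, Dusp5 had the highest log2 fold change (0.90, edgeR adjusted p = 0.459) and Dusp6 the lowest (-0.28, edgeR adjusted p = 0.816). Of 28 other immediate early genes 0 were past the threshold in edgeR. An unadjusted p under 0.05 was given to 5 (Nr4a2, Nr4a3, Tiparp, Ccn1 and Rhob), beside 13.7% of all genes tested. Ccn1, with 3, 1, 94 and 70 counts, passed the filter only through the libraries labeled KO. Of the 28 genes 19 were fitted above 0, with a median log2 fold change of 0.29, which became -0.15 without KO 2. Their sum was 7785, 6280, 5865 and 10174 CPM, and 18 of the 28 were higher in KO 2 than in KO 1, where 48.4% of all genes tested were. Zfp36, which encodes a protein that destabilizes mRNAs and was also named after its values were seen, had 996 and 1214 CPM in WT 1 and WT 2, 476 in KO 1 and 2519 in KO 2. Within the same list Nr4a3, an orphan nuclear receptor gene induced by antigen receptor signaling, went the other way between the libraries labeled KO. WT 1 and WT 2 had 10.2 and 29.6 CPM, KO 1 had 259 and KO 2 had 30.2 (log2 fold change 2.85, SE 0.91, edgeR adjusted p = 0.229), and Rhob had the lowest value of the list (-1.41, edgeR adjusted p = 0.265).

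Textbook AP-1 target genes were given by a list of 15, of which 14 were tested. None was past the threshold in edgeR. An unadjusted p under 0.05 was given to 5 of them (Mmp3, Csf2, Il6, Ptgs2 and Cd69), beside 13.7% of all genes tested, and 11 were fitted above 0, beside 6227 of all 11837 genes. Their summed level was 3360 and 1749 CPM for WT 1 and WT 2, 1536 for KO 1 and 4264 for KO 2, the order of Fos. This order rests on Hmox1, named after its values were seen, with 1498, 532, 226 and 1424 CPM. Without Hmox1 the sum was lower in WT 2 than in KO 1, so that KO 1 was no longer the lowest. Of the 14 genes 3 had KO 1 lowest and KO 2 highest. The counts of genes at an unadjusted p under 0.05 and above 0 include Mmp3 and Csf2, which passed the filter on low counts only through the libraries labeled KO. Mmp3 had 0 counts in WT 1 and WT 2, 61 in KO 1 and 15 in KO 2, and Csf2 had 0, 0, 29 and 18 counts, so that no fold change is given for either. The median log2 fold change of the list was 0.51, also with these genes at a bound set by a floor of 3 counts per library, but it was 0.10 without WT 2, 0.24 without KO 2, 0.77 without WT 1 and 1.03 without KO 1. Cd69, an early surface marker of lymphocyte activation, had 17.6 and 9.36 CPM in WT 1 and WT 2 and 41.8 and 33.2 in KO 1 and KO 2 (log2 fold change 1.48, SE 0.52, edgeR adjusted p = 0.265). Ccnd1, which encodes cyclin D1, had a log2 fold change of -0.73 (edgeR adjusted p = 0.458).

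**Figure D4:**
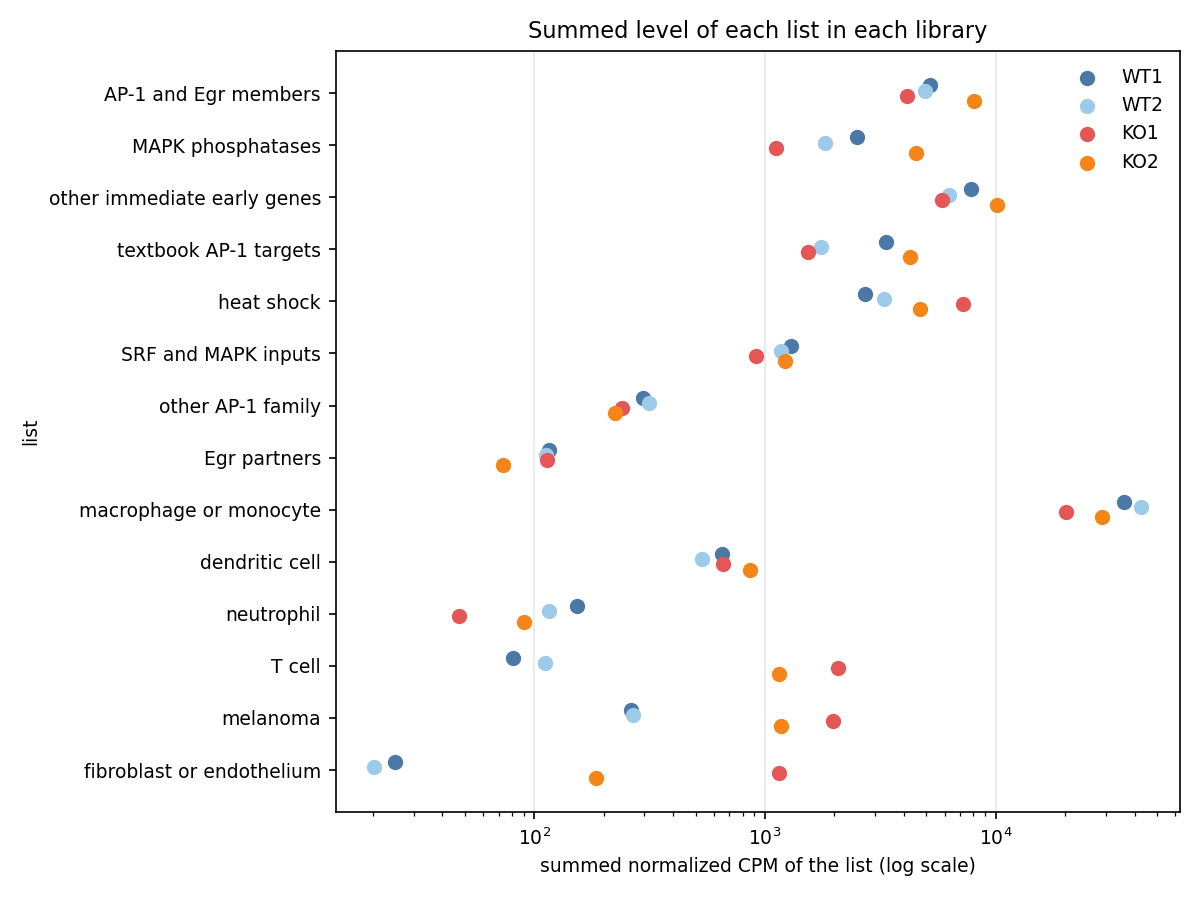
Summed normalized CPM (horizontal axis, log scale) of the members and of pathway and cell type lists (vertical axis) in the 4 libraries, shown as colored points. KO 2 is highest for the members, the MAPK phosphatases, the other immediate early genes, the textbook AP-1 targets and the dendritic cell markers. KO 1 is highest for heat shock and for T cell, melanoma and fibroblast or endothelium markers. Both libraries labeled WT are highest for macrophage or monocyte markers and for neutrophil markers, whose sum is almost all Csf3r.

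Heat shock chaperone genes encode protein folding factors. Their sum was 2725 and 3276 CPM in WT 1 and WT 2, 7198 in KO 1 and 4689 in KO 2, and 4 of the 11 genes were higher in KO 2 than in KO 1. Hspa8, with 3043 CPM in KO 1 and 1706 in KO 2, and Hsp90ab1, with 1633 and 1230, made up most of the sum. They are named after their values were seen, as are Hspa1b, with 173 CPM in KO 1 and 296 in KO 2, and Dnajb1, with 123 and 199. None of the 11 was past the threshold in edgeR, with 4 (Hsp90aa1, Hspd1, Hsph1 and Dnaja1) at an unadjusted p under 0.05, beside 13.7% of all genes. Of the 11 genes 10 were fitted above 0, with a median log2 fold change of 0.88 beside 0.05 for all genes. Hsp90aa1 had 70.3, 69.5, 625 and 89.9 CPM (log2 fold change 2.35, SE 0.78, edgeR adjusted p = 0.240). Hspa1a had 397, 326, 253 and 590 CPM, the order of Fos and Jun. Cell type markers moved between the same libraries. From KO 1 to KO 2 the macrophage or monocyte markers were higher for 12 of 13 genes, with a median of 2.64-fold beside 1.92-fold for the members, and T cell markers were lower for 8 of 10. The part of the heat shock and marker differences, or of the share of reads that did not align (30.3% in KO 2 and 41.2% to 44.2% in the other 3 libraries), in the level of the members was not tested.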

How the data were processed

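The authors deposited raw read counts per gene symbol, 1 table per library, made with HISAT2 2.1.0, mm10 and HTSeq 0.11.0 per the submitters' processing notes and the study's RNA-seq methods. The annotation, strand setting and trimming are not given in the sources used here. The 5 summary lines that name no gene were left out, and gene rows held 20.5% to 28.8% of the reads in each table. GENCODE M21 (GRCm38/mm10) supplied positions and exon lengths for 96.2% of symbols.

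The 4017875 to 5382915 counts per library entered edgeR 4.0.16 under R 4.3.3, with filterByExpr (minimum count 10, minimum total 15), TMM factors, a prior count of 0.125 and the quasi-likelihood functions glmQLFit and glmQLFTest for the WT or KO label alone. P-values were two-sided and adjusted by Benjamini-Hochberg over all 11837 genes tested. The SE was the size of the log2 fold change over the square root of F, and 95% intervals used the t distribution of the fit. The biological coefficient of variation was 42.5%. DESeq2 1.42.0, the likelihood ratio test, other scalings and filters, a replicate block, a prior count of 2, fits without genes of mitochondria, ribosomal proteins or antigen receptors, and leaving out each library were alternatives. A crossed block was added after seeing the data. Scripts were tested on simulated data. Figures used matplotlib 3.10.9.

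The members, lists and tests were chosen with earlier results of these data known. All members were named, as were, from each list, genes past the threshold or otherwise the highest and lowest fold change among genes with a mean of at least 20 CPM. Genes at an unadjusted p under 0.05 outside this rule were named after their values were seen. For lists of cell type markers only sums, counts, called genes and genes at 0 are given, with Csf3r, Irf8 and Itgax named after their values were seen. Where nothing says that libraries came from separate animals, p-values measure only the spread between these libraries, which may be technical. A count of 3 corresponded to 0.521 to 0.897 normalized CPM. Intervals on counts cover counting error only.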

Additional observations from a re-analysis of the deposited data

How the results depend on the processing

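Over 15 alternatives per gene, 130 of the 150 fold changes of members kept their sign and side of the threshold, 19 changed sign and 1 (Egr2 without KO 1) passed it. The number of genes past the threshold, 68 with all libraries, was 136 without scaling factors, 583 without a filter on low counts, 416 in DESeq2, 556 in the likelihood ratio test and 113 to 1249 when 1 library was left out. The number of members past it was 0 in every alternative except that it ran from 0 to 1 when 1 library was left out. Without scaling factors the median of all genes shifted by 0.33, and the members' median stood 0.25 above it, against 0.27 with TMM factors. This gap was 0.070 without a filter on low counts, 0.14 without WT 2, 0.68 without KO 1 and -0.40 without KO 2. Fos had a log2 fold change of -0.0028 with RLE factors and in DESeq2. When 1 library was left out the value of Fos ran from -0.81 to 0.51, Fosb from 0.08 to 0.37, Fosl2 from -0.18 to 0.80, Jun from -0.80 to 0.65, Junb from -0.19 to 0.72, Jund from -0.54 to 0.78, Atf3 from -0.56 to 0.47, Egr1 from 0.28 to 1.42, Egr2 from -0.57 to 1.90, Egr3 from 1.26 to 2.14 and the members' median from -0.37 to 0.69. Also with 1 library left out, the medians of the lists ran from -0.15 to 0.38 for the 28 other immediate early genes, from -0.46 to 0.06 for the SRF and MAPK inputs and from 0.10 to 1.03 for the AP-1 targets. Over all alternatives they ran from -0.15 to 0.64, from -0.46 to 0.29 and from 0.10 to 1.03. The values below 0 at the low end came without KO 2, except that of Fosl2, which came without KO 1. Of the scaled totals the members held 0.507% in WT and 0.607% in KO, against 0.452% and 0.672% of the plain totals. The recount of library orders under other scalings was added after seeing the data. The causes were not tested.

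The library numbers were not shown to pair the libraries: the deviations of same-numbered libraries from their group means had a correlation of -0.18 across 11837 genes. With a replicate block 215 genes and 0 members passed, and Fos, Jun and Atf3 had log2 fold changes of -0.13, -0.047 and -0.012, while Egr2 fell to 0.70 and Jund to 0.14. With a crossed block, added after seeing the data, 647 genes and 0 members passed, and the same 3 genes had -0.13, -0.047 and -0.012. Depth limits Egr3 most, with 5 counts in each library labeled WT.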

Other observations

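Over the 4 libraries, the mean centered log2 CPM of the members was nearest to that of Prpf3, Scamp1, Chfr, Ciapin1 and Nol9 among 6215 other genes with a mean of at least 20 CPM, with root mean square distances from 0.015 to 0.056. Prpf3, a splicing factor gene, had 22.1, 19.5, 21.2 and 34.4 CPM in WT 1, WT 2, KO 1 and KO 2. With 4 libraries this likeness is a description only.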
